A study of Homo sapiens with 12 samples.

Results

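Ferritin and iron handling genes are described here across 12 RNA-seq libraries of HCT116, a long-established cell line from a human colorectal carcinoma. The set holds 10 genes given by symbol: FTH1, FTL, TFRC, SLC40A1, SLC11A2, IREB2, ACO1, NCOA4, HMOX1 and STEAP3. All 10 were found among the 18969 genes listed, and all 10 were among the 12741 with enough counts to be tested. The libraries form 3 groups of 4. In the UNC0642 recovery group, cells spent 24 h in methionine-free medium with UNC0642, an inhibitor of the histone H3 lysine 9 methyltransferases EHMT1 and EHMT2, and then 24 h in methionine-replete medium without it. The DMSO recovery group went through the same restriction and recovery with the vehicle DMSO in place of the inhibitor. The third group is labelled 0 h, and no label places it at the start or at the close of the restriction. The labels give no dose of UNC0642 for these libraries, and they do not name the 4 replicates of a group as separate cultures. The p-values therefore reflect only how far these libraries differ from each other, which could be technical.

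Iron enters most cells bound to transferrin through the transferrin receptor, is reduced in endosomes, and crosses into the cytosol. What is not used for heme and iron-sulfur clusters is stored in ferritin, a hollow shell of heavy and light chains, or leaves through ferroportin. Much of this is controlled after transcription: iron-regulatory proteins bind a hairpin, the iron-responsive element, and in low iron they block translation of messages that carry it in the 5′ UTR and stabilise the transferrin receptor message, which carries it in the 3′ UTR. These libraries measure RNA levels only, so that control of translation is not seen in them, and in bulk samples fewer cells of a type and less RNA per cell cannot be told apart.

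The hairpins are printed to show the element in the members where the search found it. GENCODE v29 transcripts (GRCh38) were searched for the loop letters CAGTGN, with the last base not G, flanked on each side by 5 bases that pair with each other (G-T pairs allowed) and with an unpaired C just before them. Only the transcript strand was searched, and overlapping matches were kept. Of 19669 protein-coding genes, 1.09% held a match, and 4 of the 10 iron genes did. Each line gives 30 bases of the transcript, 5′ to 3′, as DNA letters, with the 6-base loop in capitals. FTH1 (chr11:61967573-61967602, minus strand), FTL (chr19:48965335-48965364, plus strand) and SLC40A1 (chr2:189580660-189580689, minus strand) carry 1 match each in the 5′ UTR. TFRC carries 4 in the 3′ UTR, the first at chr3:196050978-196051007 and the last at chr3:196050462-196050491, minus strand.
FTH1: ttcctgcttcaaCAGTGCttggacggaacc
FTL: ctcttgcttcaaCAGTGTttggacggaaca
SLC40A1: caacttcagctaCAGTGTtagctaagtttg
TFRC site 1: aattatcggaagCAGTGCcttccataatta
TFRC site 2: cattatcgggagCAGTGTcttccataatgt
TFRC site 3: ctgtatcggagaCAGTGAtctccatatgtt
TFRC site 4: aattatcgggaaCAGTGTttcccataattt
The windows of both ferritin chains were identical at 26 of 30 bases, whereas FTH1 shared only 9 to 11 of 30 with the TFRC windows. No match in the other 6 genes says only that this pattern of loop, paired stem and unpaired C was not found in the transcripts searched. The loop letters alone may still be there, and an element with an imperfect stem would be missed. This holds for the 4 matched genes too, so the 4 matches in TFRC need not be all of its elements.

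Total counts were 17882236 to 19939398 per library after UNC0642 recovery, 16181056 to 20179847 after DMSO recovery and 14658082 to 18246690 at 0 h. The epithelial markers EPCAM, KRT8, KRT18, KRT19 and CDH1 were present in all groups (EPCAM 294, 310 and 333 CPM on average after UNC0642 recovery, after DMSO recovery and at 0 h). In contrast, the intestinal factor CDX1 was at 0 in all 12 libraries. VIL1, from the same marker list, averaged only 0.10, 0.04 and 0 CPM in these groups. Among 12 blood, fibroblast and endothelial markers the summed level was 37.8 to 44.7 CPM after UNC0642 recovery, 34.1 to 45.1 CPM after DMSO recovery and 28.5 to 52.2 CPM at 0 h. Most of this sum was COL1A1 (28.2, 27.1 and 23.3 CPM on average) and CD68 (8.27, 7.72 and 6.75 CPM). It therefore says little about the rarer markers. Of these markers 9 were tested, and 2 rose and 2 fell after UNC0642 recovery (median log2 fold change -0.77), while 2 rose and 6 fell after DMSO recovery (median -1.68), each against 0 h. That is 44.4% and 88.9% of the 9, where 47% and 44.1% of all tested genes rose or fell. With each library left out in turn, 0 to 2 of these markers rose and 2 to 4 fell after UNC0642 recovery, and 0 to 2 rose and 3 to 6 fell after DMSO recovery. With log2(FPKM + 1) in limma 2 rose and 1 fell after UNC0642 recovery, and 0 rose and 1 fell after DMSO recovery. COL1A2, a fibroblast collagen, exceeded 1 CPM in 6 libraries: replicates 3 and 4 of UNC0642 recovery, replicate 1 of DMSO recovery and replicates 1, 2 and 3 at 0 h. Leaving those libraries out keeps 2 of UNC0642 recovery, 3 of DMSO recovery and 1 at 0 h. Libraries also fell into a class of long and a class of short gap between gene length and effective length. The short-gap class held 2 libraries of UNC0642 recovery, 1 of DMSO recovery and 2 at 0 h, and the long-gap class held 2, 3 and 2. Where an arm holds 1 library, the fit assumes that it varies like the others. The part of these markers in the results was not tested.

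Both ferritin chains were among the most abundant transcripts of these cells, and the iron exporter SLC40A1 was the rarest of the set in each group. Per length, in the deposited FPKM (fragments scaled to transcript length and library size), FTH1, the heavy chain that carries the ferroxidase site, averaged 1709 ± 26.0 after UNC0642 recovery, 1598 ± 15.9 after DMSO recovery and 1062 ± 14.3 at 0 h (SD, n = 4 each). FTL, the light chain that helps iron mineralise, averaged 1394 ± 16.2, 1449 ± 21.1 and 1044 ± 34.7 FPKM in the same groups. These levels put FTH1 at rank 31 to 97 and FTL at rank 54 to 99 of 18969 genes over the 12 libraries. TFRC followed at 145 ± 3.03 FPKM after UNC0642 recovery, 141 ± 4.17 FPKM after DMSO recovery and 129 ± 3.54 FPKM at 0 h.

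The other genes kept 1 order in FPKM in all 3 groups: NCOA4, STEAP3, ACO1, IREB2, HMOX1, SLC11A2 and SLC40A1. After UNC0642 recovery NCOA4 averaged 43.3 ± 1.48 FPKM, STEAP3 25.6 ± 0.808 and ACO1 19.6 ± 0.594. In the same libraries IREB2 averaged 15.8 ± 1.34 FPKM, HMOX1 12.5 ± 0.171 and SLC11A2 11.7 ± 0.447. SLC40A1 stood far below at 0.415 ± 0.111 FPKM. Neighbours in this order had overlapping library values only at 0 h, for FTH1 with FTL, STEAP3 with ACO1 and ACO1 with IREB2. After recovery in either group the library ranges of neighbouring genes were apart. Recomputing the levels as TPM scales all genes of a library by 1 factor, so it could not change their order within a library.

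**Figure D1:**
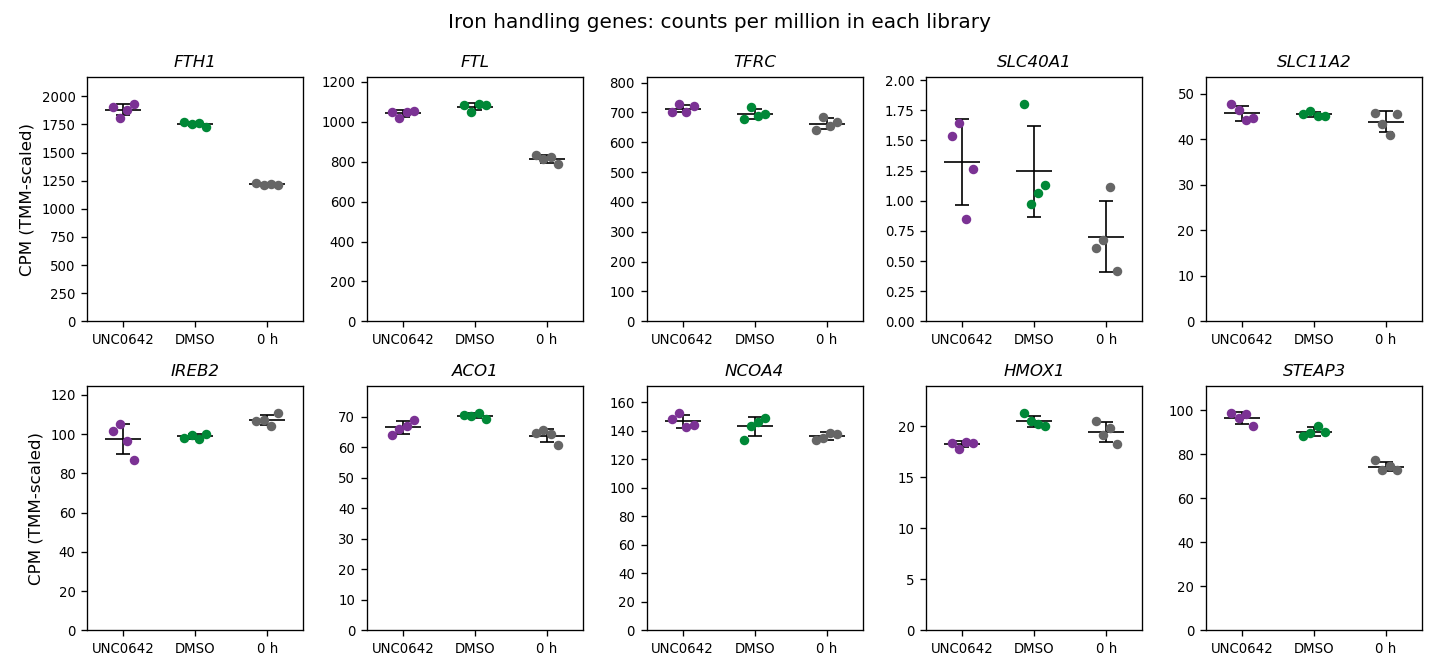
TMM-scaled CPM (counts scaled to library size) of the 10 iron handling genes in each library (points), with the mean and SD of 4 libraries (bars), after UNC0642 recovery, after DMSO recovery and at 0 h. FTH1, FTL and STEAP3 lie clearly below both recovery groups at 0 h, whereas the 3 groups overlap for SLC11A2.

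Against 0 h, the UNC0642 recovery group asks which iron genes differ after restriction with the inhibitor and a day of recovery. Both recovery groups carry a time label of 24 h, and no unrestricted group shares it. Time and treatment therefore cannot be told apart in either comparison with 0 h. In these comparisons rose and fell mean only higher and lower than at 0 h. Ferritin RNA rose, the heavy chain more than the light chain, and STEAP3 rose by about as much as FTL. TFRC and NCOA4 rose slightly, IREB2 fell slightly, and SLC40A1, which has very few counts, rose. Of the 10 genes, 6 rose and 1 fell at an adjusted p under 0.05 (edgeR quasi-likelihood test, Benjamini-Hochberg over all genes tested), where 47% of all tested genes were called in this comparison, 23.4% higher and 23.6% lower. The median log2 fold change of the set was 0.11, beside 0.01 over all tested genes. With library totals alone in place of TMM scaling, 67.5% of the calls over all genes were higher instead of 49.8%, so small changes of either sign depend on scaling.

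Against the same 0 h libraries, DMSO recovery also had 6 iron genes higher and 1 lower, where 44.1% of all tested genes were called, 22.4% higher and 21.7% lower. The median log2 fold change of the set was again 0.11, beside 0.01 over all tested genes. With totals alone, 67.5% of the calls over all genes were higher instead of 50.8%. Both comparisons share the 0 h libraries, so their values are given side by side and are not independent of each other. Groups did not overlap for 5 higher and 0 lower iron genes after UNC0642 recovery (40.2% of all tested genes in either direction, 20.1% higher and 20.1% lower), and for 4 higher and 1 lower after DMSO recovery (38.3% of all tested genes, 19.3% higher and 19% lower).

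The storage genes rose in both recovery groups. FTH1 stood at 1905, 1811, 1880 and 1929 CPM in the UNC0642 recovery libraries, at 1768, 1750.3, 1761 and 1731 CPM in the DMSO recovery libraries and at 1227, 1213, 1225 and 1209 CPM at 0 h. Every UNC0642 library was above every DMSO library, and every DMSO library was above every 0 h library. FTH1 was 1.54-fold higher after UNC0642 recovery than at 0 h (log2 fold change 0.63 ± 0.02, SE, n = 4 per group, edgeR adjusted p = 3.65e-23) and 1.44-fold higher after DMSO recovery than at 0 h (0.52 ± 0.02, adjusted p = 6.53e-21). FTL stood at 1049, 1018, 1048 and 1054 CPM after UNC0642 recovery, at 1084, 1051, 1088 and 1083 CPM after DMSO recovery and at 832, 814, 822 and 788 CPM at 0 h. Here the recovery groups overlapped each other, and both lay above 0 h without overlap. FTL was 1.28-fold higher after UNC0642 recovery (0.36 ± 0.02, adjusted p = 2.07e-15) and 1.32-fold higher after DMSO recovery (0.40 ± 0.02, adjusted p = 9e-17), each against 0 h. Within libraries of the long and of the short gap, the log2 change of FTH1 against 0 h was 0.60 and 0.66 after UNC0642 recovery and 0.52 and 0.54 after DMSO recovery. The log2 change of FTL was 0.33 and 0.39 after UNC0642 recovery and 0.38 and 0.43 after DMSO recovery in the same classes. Without the 6 libraries with COL1A2 above 1 CPM, the log2 change of FTH1 was 0.61 after UNC0642 recovery and 0.53 after DMSO recovery. FTH1 has near-identical copies elsewhere in the genome whose reads could be shared with it, so its level is uncertain to that extent.

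The share of both chains in the library shows the size of this change. Together FTH1 and FTL took 0.299%, 0.289%, 0.298% and 0.301% of the counts after UNC0642 recovery and 0.288%, 0.284%, 0.287% and 0.284% after DMSO recovery, against 0.200%, 0.197%, 0.200% and 0.194% at 0 h. All 10 iron genes together took 0.412% to 0.420% after UNC0642 recovery, 0.402% to 0.405% after DMSO recovery and 0.303% to 0.307% at 0 h, so ferritin made up most of the set's reads in each group.

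The balance of the ferritin chains differed between all 3 groups. The ratio of FTH1 to FTL in FPKM, which does not depend on how libraries are scaled, was 1.239, 1.202, 1.215 and 1.248 after UNC0642 recovery, 1.110, 1.124, 1.093 and 1.082 after DMSO recovery and 0.999, 1.009, 1.017 and 1.047 at 0 h. No pair of groups overlapped. The short-gap libraries, replicates 1 and 4 of UNC0642 recovery and 3 and 4 at 0 h, had the higher ratios of their groups. DMSO recovery has 1 short-gap library, replicate 1. Within each class the ratios were also highest after UNC0642 recovery and lowest at 0 h. The mean ratio was 0.208 higher after UNC0642 recovery than at 0 h, 0.0847 higher after DMSO recovery than at 0 h and 0.124 higher after UNC0642 than after DMSO recovery. In each case the exact two-sided permutation p was 0.0286, the smallest that 4 against 4 libraries can give, and 0.0343 after adjustment over the 6 ratio tests.

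TFRC, the receptor that brings transferrin-bound iron into the cell, moved little beside ferritin. TFRC stood at 702, 727, 703 and 720.4 CPM after UNC0642 recovery, at 677, 719, 689 and 695 CPM after DMSO recovery and at 642, 684, 654 and 668 CPM at 0 h. The UNC0642 libraries lay above those at 0 h without overlap, whereas the DMSO libraries overlapped both. In each group replicate 1 was lowest and replicate 2 highest, and the replicate numbers kept the same order in all 3 groups. Whether replicate numbers pair libraries is not given by the labels, and the test did not pair them. TFRC was 7.72% higher after UNC0642 recovery (log2 fold change 0.11 ± 0.02, edgeR adjusted p = 0.000302) and 4.96% higher after DMSO recovery (0.07 ± 0.02, adjusted p = 0.0149), each against 0 h. The DMSO call was lost without replicate 1 at 0 h (0.055, adjusted p = 0.0728), without replicate 2 of DMSO recovery (0.053, adjusted p = 0.0855) and within the short-gap libraries, where DMSO recovery has 1 library (0.036, adjusted p = 0.557). Without the 6 libraries with COL1A2 above 1 CPM neither call held, at 0.09 after UNC0642 recovery (adjusted p = 0.0912) and 0.06 after DMSO recovery (adjusted p = 0.233).

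Set against the heavy chain, the receptor was lower in both recovery groups. The ratio of TFRC to FTH1 in FPKM was 0.0832, 0.0894, 0.0835 and 0.0844 after UNC0642 recovery, 0.0863, 0.0912, 0.0869 and 0.0895 after DMSO recovery and 0.117, 0.126, 0.121 and 0.125 at 0 h. Both recovery groups lay below 0 h without overlap (exact two-sided permutation p = 0.0286, adjusted 0.0343, n = 4 per group), while they overlapped each other. Between UNC0642 and DMSO recovery the mean ratio differed by -0.00335 (exact permutation p = 0.114, libraries not paired).

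**Figure D2:**
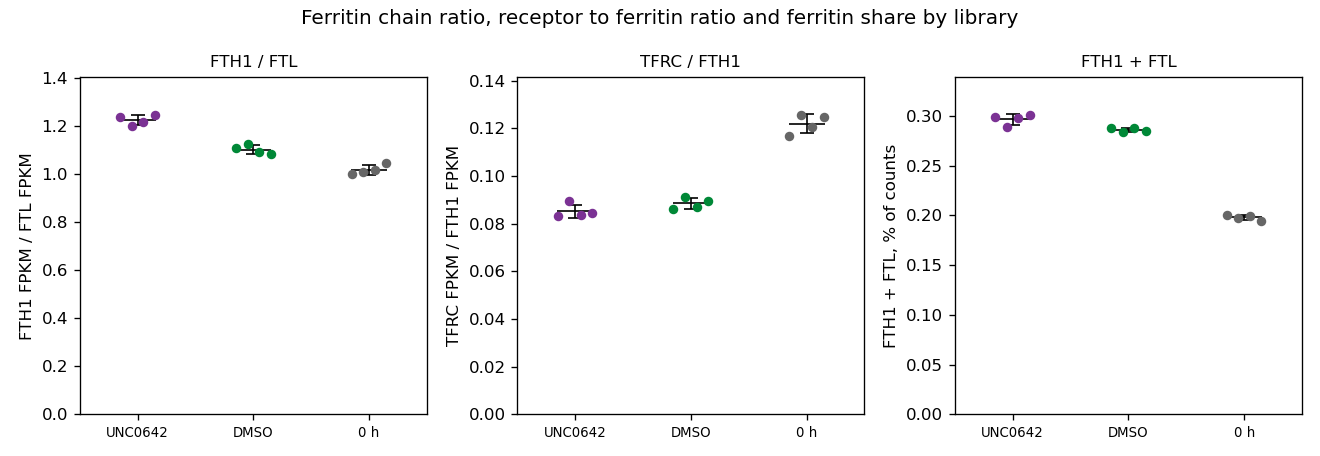
FTH1 over FTL in FPKM (left), TFRC over FTH1 in FPKM (middle) and the summed share of FTH1 and FTL in all counts, in percent (right), per library (points) with the mean and SD of 4 libraries (bars), after UNC0642 recovery, after DMSO recovery and at 0 h. The chain ratio averages 1.23, 1.102 and 1.02 in these groups without overlap, and the receptor ratio averages 0.0851, 0.0885 and 0.122.

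Among the genes that reduce and move imported iron, STEAP3 changed and SLC11A2 did not pass the test. STEAP3, the endosomal ferrireductase of the transferrin cycle, stood at 98.7, 96.6, 98.5 and 92.9 CPM after UNC0642 recovery, at 88.2, 89.8, 93.1 and 90.4 CPM after DMSO recovery and at 77.3, 72.8, 74.8 and 72.8 CPM at 0 h. Both recovery groups lay above 0 h in every library, and 1 DMSO library was above the lowest UNC0642 library. STEAP3 was 1.30-fold higher after UNC0642 recovery (log2 fold change 0.38 ± 0.04, edgeR adjusted p = 3.44e-10) and 1.21-fold higher after DMSO recovery (0.28 ± 0.04, adjusted p = 2.12e-07), each against 0 h. Within the long-gap and short-gap libraries the log2 change of STEAP3 was 0.38 and 0.38 after UNC0642 recovery and 0.28 and 0.26 after DMSO recovery. SLC11A2, the divalent metal transporter DMT1 that passes iron from the endosome to the cytosol, ranged over 44.1 to 47.7 CPM after UNC0642 recovery, 45.1 to 46.2 CPM after DMSO recovery and 41.0 to 45.8 CPM at 0 h. The log2 fold change of SLC11A2 was 0.06 ± 0.05 after UNC0642 recovery (95% interval -0.04 to 0.15) and 0.05 ± 0.05 after DMSO recovery (-0.05 to 0.15), each against 0 h.

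Export rested on few reads. SLC40A1, the ferroportin gene and the only known cellular iron exporter of vertebrates, had 31, 30, 16 and 23 counts after UNC0642 recovery, 34, 16, 19 and 23 counts after DMSO recovery and 10, 12, 16 and 6 counts at 0 h. The sums were 100, 92 and 44 counts in these groups, and both recovery groups overlapped 0 h. SLC40A1 was 1.88-fold higher after UNC0642 recovery (log2 fold change 0.91 ± 0.33, edgeR adjusted p = 0.0214) and 1.78-fold higher after DMSO recovery (0.83 ± 0.33, adjusted p = 0.0408), each against 0 h. The UNC0642 call of SLC40A1 was lost without any 1 of replicates 1 and 2 of UNC0642 recovery or 1 and 4 at 0 h, where its log2 change was 0.83, 0.79, 0.84 and 0.75 (adjusted p 0.0580 to 0.0768). The DMSO call of SLC40A1 was lost without any 1 of replicate 1 of DMSO recovery or replicates 1, 2 and 4 at 0 h, where its log2 change was 0.60, 0.76, 0.81 and 0.67 (adjusted p 0.0807 to 0.183). Within the long-gap and short-gap libraries SLC40A1 passed the test in neither comparison, with log2 changes of 0.95 and 0.87 after UNC0642 recovery (adjusted p = 0.114 and 0.151) and 0.72 and 1.22 after DMSO recovery (adjusted p = 0.214 and 0.0886, the second with 1 DMSO library). Without the 6 libraries with COL1A2 above 1 CPM its log2 change was 1.89 after UNC0642 recovery (adjusted p = 0.0297) and 1.31 after DMSO recovery, where the call was lost (adjusted p = 0.149).

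The regulators of the hairpin moved in opposite directions where they passed the test. IREB2, iron-regulatory protein 2, which is degraded when iron is plentiful, stood at 101, 105, 96.5 and 86.9 CPM after UNC0642 recovery, at 98.2, 99.5, 97.4 and 100.1 CPM after DMSO recovery and at 107, 107, 104 and 111 CPM at 0 h. The DMSO libraries lay below 0 h without overlap, and 1 UNC0642 library reached into the 0 h range. IREB2 changed by -9.06% after UNC0642 recovery (log2 fold change -0.14 ± 0.04, edgeR adjusted p = 0.00674) and by -7.85% after DMSO recovery (-0.12 ± 0.04, adjusted p = 0.0200), each against 0 h. These calls depended on scaling: with library totals alone the log2 change of IREB2 was -0.077 after UNC0642 recovery and -0.065 after DMSO recovery, and neither passed the test. The UNC0642 call of IREB2 was also lost without replicate 4 of that group (-0.087, adjusted p = 0.0560). The DMSO call was lost without replicate 4 at 0 h (-0.10, adjusted p = 0.0645) or replicate 1 of DMSO recovery (-0.11, adjusted p = 0.0514). Within the long-gap libraries both calls of IREB2 were lost (-0.087, adjusted p = 0.237, after UNC0642 recovery and -0.11, adjusted p = 0.0862, after DMSO recovery). Within the short-gap libraries IREB2 was at -0.19 after UNC0642 recovery (adjusted p = 0.0111) and at -0.13 after DMSO recovery (adjusted p = 0.195, 1 DMSO library). Without the 6 libraries with COL1A2 above 1 CPM it was at -0.11 after UNC0642 recovery (adjusted p = 0.229) and at -0.17 after DMSO recovery (adjusted p = 0.0375). ACO1, which is a cytosolic aconitase when it holds an iron-sulfur cluster and iron-regulatory protein 1 when it does not, stood at 63.9, 66.1, 67.0 and 68.8 CPM after UNC0642 recovery, at 70.6, 70.2, 71.0 and 69.1 CPM after DMSO recovery and at 64.7, 65.4, 64.2 and 60.7 CPM at 0 h. All 4 DMSO libraries were above all libraries of the other groups, which overlapped each other. ACO1 was 10.0% higher after DMSO recovery than at 0 h (0.14 ± 0.04, adjusted p = 0.00536), a call lost within the long-gap libraries (0.11) and within the short-gap libraries (0.18, 1 DMSO library), and it did not pass the test after UNC0642 recovery (0.06 ± 0.04, adjusted p = 0.246).

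The gene for ferritin turnover and that for heme breakdown showed small differences. NCOA4, the receptor that carries ferritin to lysosomes so that its iron is released, stood at 148, 152, 142 and 144 CPM after UNC0642 recovery, at 134, 144, 146 and 149 CPM after DMSO recovery and at 133, 135, 139 and 138 CPM at 0 h. The UNC0642 libraries lay above 0 h without overlap, and the DMSO libraries overlapped both groups. NCOA4 was 7.62% higher after UNC0642 recovery than at 0 h (log2 fold change 0.11 ± 0.03, edgeR adjusted p = 0.00995), a call lost within the short-gap libraries (0.077) and without the 6 libraries with COL1A2 above 1 CPM (0.12). After DMSO recovery NCOA4 was at 0.07 ± 0.03 (adjusted p = 0.0888), which passed the test without replicate 1 of DMSO recovery (0.11, adjusted p = 0.0109) and within the long-gap libraries (0.12, adjusted p = 0.0154). Within the short-gap libraries, with 1 DMSO library, NCOA4 was at -0.048 (adjusted p = 0.587). HMOX1, heme oxygenase 1, which frees iron from heme, stood at 18.4, 17.8, 18.5 and 18.4 CPM after UNC0642 recovery, at 21.27, 20.52, 20.18 and 20.0045 CPM after DMSO recovery and at 20.5, 19.1, 19.8 and 18.2 CPM at 0 h. The 0 h libraries overlapped both recovery groups, and HMOX1 passed the test against 0 h in neither (-0.09 ± 0.06 after UNC0642 recovery and 0.08 ± 0.06 after DMSO recovery).

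**Figure D3:**
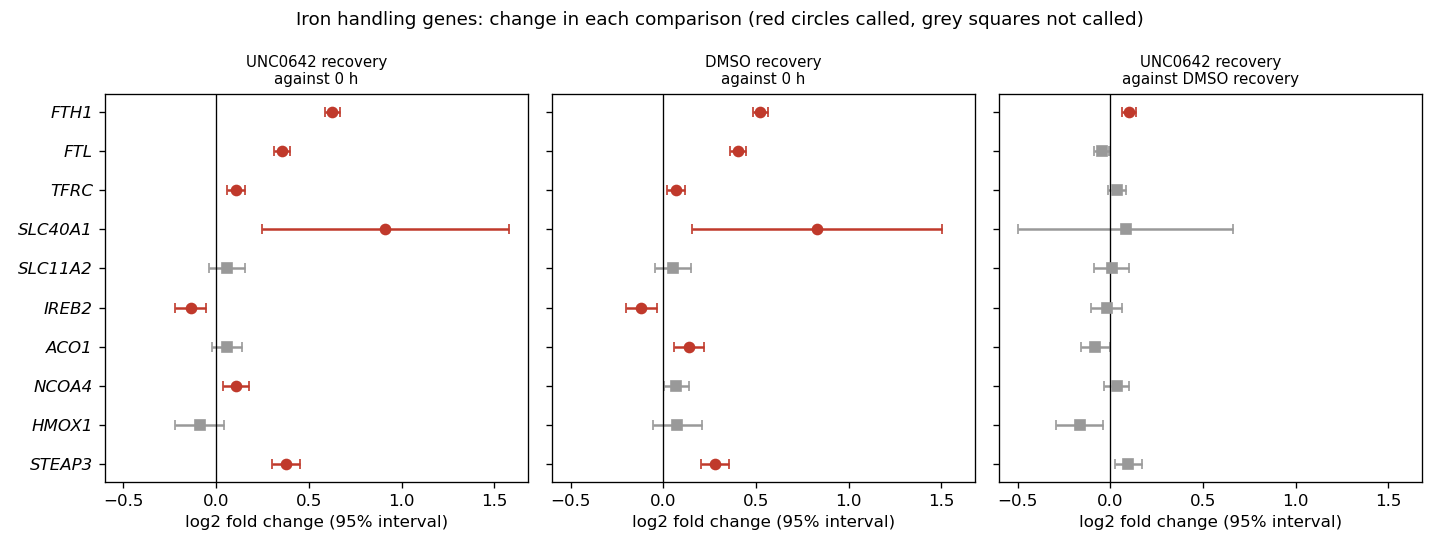
Log2 fold change of the 10 iron handling genes (points) with 95% intervals (bars) for UNC0642 recovery against 0 h, DMSO recovery against 0 h and UNC0642 recovery against DMSO recovery. FTH1 is the 1 gene called in all 3 comparisons, and the widest intervals belong to SLC40A1.

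UNC0642 recovery against DMSO recovery asks what the inhibitor during restriction left behind after recovery. FTH1 was the 1 iron gene called, where 4.58% of all tested genes were called (2.06% higher and 2.53% lower), and it was 1.07-fold higher after UNC0642 recovery (log2 fold change 0.10 ± 0.02, edgeR adjusted p = 0.000609). The median log2 fold change of the set was 0.02, beside 0.00 over all tested genes. Libraries did not overlap for 1 higher gene, FTH1, and 2 lower genes, ACO1 and HMOX1, where 10.5% of all tested genes did not overlap in either direction (5.05% higher and 5.42% lower). HMOX1 averaged 18.3 ± 0.301 CPM after UNC0642 recovery and 20.5 ± 0.562 CPM after DMSO recovery, a log2 difference of -0.17 ± 0.06 that did not pass the adjustment (adjusted p = 0.137). ACO1 differed by -0.08 ± 0.04 (adjusted p = 0.287) and STEAP3 by 0.10 ± 0.04 (adjusted p = 0.119). The log2 difference of FTH1 was 0.08 within the long-gap libraries (adjusted p = 0.0458) and 0.12 within the short-gap libraries (adjusted p = 0.0376, with 1 DMSO library), and 0.09 without the 6 libraries with COL1A2 above 1 CPM, where the call was lost (adjusted p = 0.0521). The other genes had 95% intervals that spanned or neared 0, among them FTL (-0.09 to -0.0044), TFRC (-0.01 to 0.08), IREB2 (-0.10 to 0.06), NCOA4 (-0.03 to 0.10) and SLC11A2 (-0.09 to 0.10). For SLC40A1 the interval was -0.50 to 0.66, so a sizeable difference of either sign was not detectable at this depth.

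Beyond the 10 genes, 8 lists of iron and heme genes held 137 genes, of which 124 were tested. Of these, 43 rose and 28 fell after UNC0642 recovery (57.3% called) and 39 rose and 29 fell after DMSO recovery (54.8% called), each against 0 h, where 47% and 44.1% of all tested genes were called. The median log2 fold change over these genes was 0.04 after UNC0642 recovery and 0.01 after DMSO recovery, beside 0.01 over all tested genes in both. Medians were highest in the lists for heme synthesis, heme breakdown and transport, and iron uptake.

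In heme synthesis, 6 of 8 tested genes rose and 1 fell after UNC0642 recovery (median log2 fold change 0.25), and 4 rose and 1 fell after DMSO recovery (median 0.15). That is 87.5% and 62.5% of the list called, beside 47% and 44.1% of all tested genes. ALAS1, the first and rate-limiting enzyme, averaged 90.7 ± 5.73 CPM after UNC0642 recovery, 91.5 ± 5.62 CPM after DMSO recovery and 66.2 ± 2.03 CPM at 0 h (SD, n = 4 each). Its log2 change was 0.45 ± 0.05 after UNC0642 recovery and 0.47 ± 0.05 after DMSO recovery, each against 0 h. UROS, which closes the porphyrin ring, changed by 0.48 ± 0.06 and 0.36 ± 0.06, and CPOX, a mitochondrial oxidase of the pathway, by 0.18 ± 0.02 and 0.14 ± 0.02 in these comparisons. UROD, the decarboxylase between them, was the 1 that fell, by -0.32 ± 0.05 after UNC0642 recovery and -0.29 ± 0.05 after DMSO recovery. Within the long-gap libraries 5 heme synthesis genes rose after UNC0642 recovery and 4 after DMSO recovery, where 34.5% and 35.9% of all tested genes were called. Fewer rose without the 6 libraries with COL1A2 above 1 CPM, which leaves 1 library at 0 h. In that setting fewer of all tested genes were called too.

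In heme breakdown and transport, 10 of 12 genes rose and 1 fell after UNC0642 recovery (median 0.25), and 7 rose and 0 fell after DMSO recovery (median 0.25). Called genes made up 91.7% and 58.3% of this list, beside 47% and 44.1% of all tested genes. SLC48A1, which moves heme out of endosomes and lysosomes, changed by 0.65 ± 0.07 after UNC0642 recovery and 0.52 ± 0.07 after DMSO recovery, against 0 h. The porphyrin transporter gene ABCB6 changed by 0.37 ± 0.06 and 0.35 ± 0.06, and the efflux pump gene ABCG2 by 0.85 ± 0.17 and 0.65 ± 0.17. LRP1, a receptor for hemopexin-bound heme, changed by 0.42 ± 0.10 and 0.43 ± 0.10. Of the enzymes next to HMOX1, the biliverdin reductase genes BLVRA (0.30 ± 0.06 and 0.25 ± 0.07) and BLVRB (0.18 ± 0.05 and 0.13 ± 0.05) rose in both comparisons, and HMOX2 rose after UNC0642 recovery (0.12 ± 0.04) with a value of 0.04 ± 0.04 after DMSO recovery. Within the long-gap libraries only 5 genes of this list rose after UNC0642 recovery and 2 after DMSO recovery. There 34.5% and 35.9% of all tested genes were called. The 1 fall was lost in that class, with library totals alone and with log2 FPKM. Fewer genes of the list also rose without the 6 libraries with COL1A2 above 1 CPM, which leaves 1 library at 0 h. In that setting fewer of all tested genes were called too.

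In cell iron uptake, reduction and mitochondrial import, 8 of 12 tested genes rose and 1 fell after UNC0642 recovery (median 0.32), and 7 rose and 2 fell after DMSO recovery (median 0.40). In both comparisons 75% of the list was called, beside 47% and 44.1% of all tested genes. The number of falls was 2 after UNC0642 recovery without its replicate 4, and 1 after DMSO recovery without any 1 of its replicates 1 and 4 or replicates 2, 3 and 4 at 0 h. CYBRD1, a plasma membrane ferrireductase, averaged 30.3 ± 2.43 CPM after UNC0642 recovery, 32.4 ± 1.04 CPM after DMSO recovery and 19.0 ± 1.12 CPM at 0 h. The metal importer gene SLC39A8 changed by 0.70 ± 0.06 after UNC0642 recovery and 0.60 ± 0.06 after DMSO recovery, against 0 h, whereas the related SLC39A14 fell (-0.18 ± 0.03 and -0.27 ± 0.03). CD44, a surface glycoprotein with a described role in iron endocytosis, changed by 0.43 ± 0.02 and 0.47 ± 0.02. The mitochondrial iron importer gene SLC25A37 passed the test in neither (0.11 ± 0.06 and 0.13 ± 0.06), and SLC25A28 fell after DMSO recovery (-0.13 ± 0.05) with a value of -0.10 ± 0.05 after UNC0642 recovery.

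Among iron regulators and chaperones, 4 of 17 tested genes rose and 2 fell after UNC0642 recovery (median 0.03), and 6 rose and 2 fell after DMSO recovery (median 0.03). These calls were 35.3% of the list after UNC0642 recovery, where 47% of all tested genes were called, and 47.1% after DMSO recovery, where 44.1% were. With library totals alone 8 rose and 2 fell after UNC0642 recovery. The falls were the cytosolic chaperones that deliver iron to ferritin. PCBP1 averaged 289 ± 4.61 CPM after UNC0642 recovery, 274 ± 3.10 CPM after DMSO recovery and 347 ± 8.14 CPM at 0 h, and PCBP2 changed by -0.25 ± 0.02 and -0.28 ± 0.02 against 0 h. EPAS1, hypoxia-inducible factor 2 alpha, rose in both (0.66 ± 0.05 and 0.59 ± 0.06). FBXL5, the iron-sensing ligase subunit that marks IREB2 for degradation, passed the test in neither (-0.08 ± 0.06 and -0.13 ± 0.06), nor did the HMOX1 repressor gene BACH1 (-0.02 ± 0.07 and -0.03 ± 0.07). HERC2, a ligase for FBXL5 and NCOA4, had 0.03 ± 0.03 after UNC0642 recovery and rose after DMSO recovery (0.09 ± 0.03).

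In iron-sulfur cluster assembly, 3 of 25 tested genes rose and 9 fell after UNC0642 recovery (median -0.08), and 2 rose and 9 fell after DMSO recovery (median -0.09). The share called was 48% and 44% in these comparisons, near the 47% and 44.1% of all tested genes. The number of falls depended on scaling: with library totals alone 3 rose and 5 fell in each comparison, and with log2(FPKM + 1) in limma 4 rose and 5 fell after UNC0642 recovery and 4 rose and 4 fell after DMSO recovery. Without replicate 1 or without replicate 4 at 0 h, 5 genes of this list fell after DMSO recovery. NARFL, a cytosolic assembly factor, changed by -0.37 ± 0.06 after UNC0642 recovery and -0.48 ± 0.06 after DMSO recovery, against 0 h. The mitochondrial chaperone gene HSPA9 changed by -0.14 ± 0.02 and -0.11 ± 0.02, and the cytosolic electron donor gene CIAPIN1 by -0.24 ± 0.04 and -0.16 ± 0.04. FDXR, ferredoxin reductase, rose (0.18 ± 0.04 and 0.20 ± 0.04).

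The ferroptosis list, which covers peroxide control in membranes, had 5 of 16 tested genes higher and 6 lower after UNC0642 recovery (median 0.03) and 4 higher and 7 lower after DMSO recovery (median -0.07). Calls covered 68.8% of it in both comparisons, beside 47% and 44.1% of all tested genes. With library totals alone 7 were higher and 3 lower after UNC0642 recovery, and 4 higher and 6 lower after DMSO recovery. Without replicate 1 or without replicate 3 at 0 h, 3 genes of this list rose after UNC0642 recovery. LPCAT3, which places polyunsaturated chains in phospholipids, rose (0.47 ± 0.04 after UNC0642 recovery and 0.42 ± 0.04 after DMSO recovery, against 0 h), as did the acyl-CoA synthetase gene ACSL4 (0.23 ± 0.04 and 0.30 ± 0.04). The cystine exchanger subunit genes SLC7A11 (-0.19 ± 0.07 and -0.34 ± 0.07) and SLC3A2 (-0.16 ± 0.02 and -0.23 ± 0.02) fell, as did VDAC3 (-0.23 ± 0.03 and -0.15 ± 0.03), a mitochondrial channel, and the small heat shock gene HSPB1 (-0.20 ± 0.03 and -0.12 ± 0.03). GPX4, the lipid peroxide reductase, passed the test in neither (-0.05 ± 0.03 and -0.00 ± 0.03).

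Among NRF2 and BACH1 targets and their control, 4 of 14 genes rose and 4 fell after UNC0642 recovery (median 0.06), and 5 rose and 4 fell after DMSO recovery (median 0.00). So 57.1% and 64.3% of the list were called, beside 47% and 44.1% of all tested genes. With library totals alone 7 rose and 3 fell after UNC0642 recovery, and the DMSO counts were the same. NFE2L2, which encodes NRF2, fell (-0.14 ± 0.03 after UNC0642 recovery and -0.20 ± 0.03 after DMSO recovery, against 0 h), and so did its inhibitor gene KEAP1 (-0.26 ± 0.03 and -0.25 ± 0.03). The peroxiredoxin gene PRDX1 fell (-0.28 ± 0.02 and -0.24 ± 0.02), while SQSTM1, the autophagy receptor p62, rose (0.29 ± 0.03 and 0.29 ± 0.03). Ferritin chains and HMOX1 are textbook NRF2 and BACH1 targets, and of these FTH1 and FTL rose while HMOX1 passed the test in neither comparison.

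**Figure D4:**
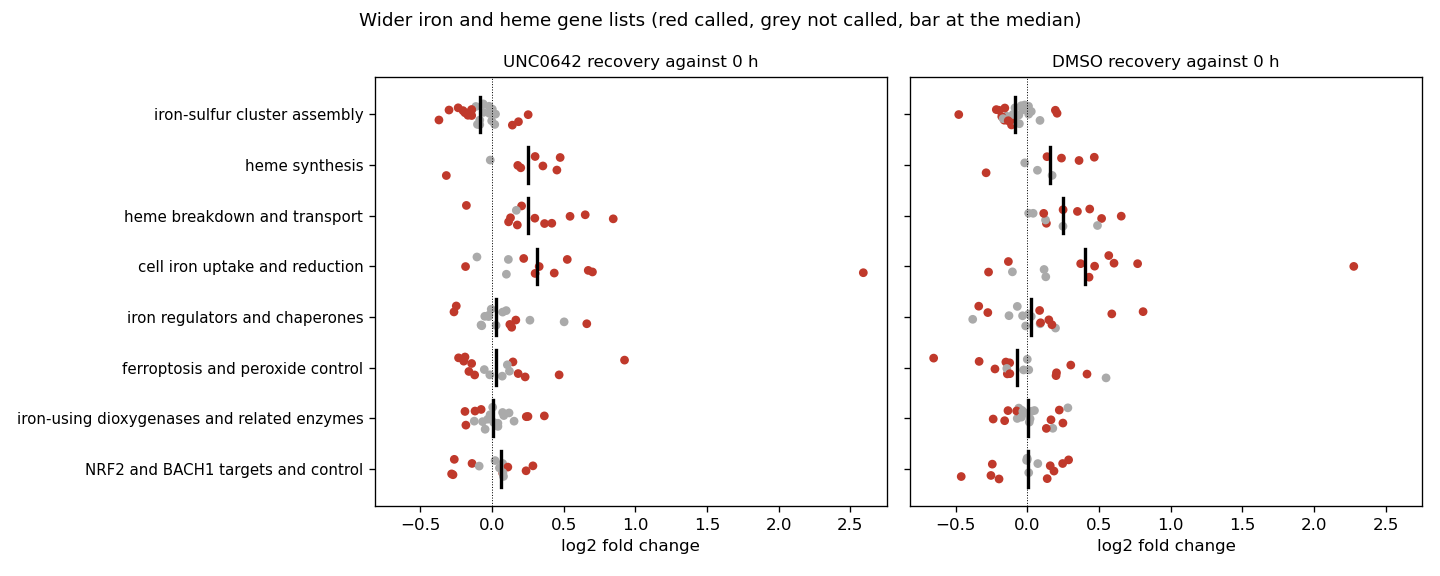
Log2 fold change against 0 h of each tested gene in 8 iron and heme lists, after UNC0642 recovery (left) and after DMSO recovery (right), with called genes in red, other genes in grey and a bar at each list's median. The medians of the heme synthesis, heme transport and iron uptake lists lie right of 0, and that of the iron-sulfur list lies left of 0 at -0.08 and -0.09.

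Of the 124 wider iron and heme genes tested, 4 (3.23%) were called between UNC0642 and DMSO recovery, 2 higher and 2 lower, where 4.58% of all tested genes were called. KDM3A, an iron-dependent demethylase of histone H3 lysine 9, averaged 30.5 ± 1.13 CPM after UNC0642 recovery and 38.7 ± 1.81 CPM after DMSO recovery (log2 fold change -0.35 ± 0.06, edgeR adjusted p = 7.87e-05). Its relative KDM3B was lower by less (-0.12 ± 0.03, adjusted p = 0.0164), and neither gene's groups overlapped. CISD2, an iron-sulfur protein of the endoplasmic reticulum, averaged 64.9 ± 2.52 CPM after UNC0642 recovery and 57.6 ± 0.759 CPM after DMSO recovery (0.17 ± 0.04, adjusted p = 0.0155). CHAC1, which breaks down glutathione, was higher with overlapping groups (0.64 ± 0.19, adjusted p = 0.0384). The number called was 1 without replicate 3 of DMSO recovery and 2 without replicate 1 of UNC0642 recovery. In these fits 3.56% and 3.29% of all tested genes were called. The list of iron-using dioxygenases and related enzymes, which holds KDM3A and KDM3B, had 3 of 20 genes higher and 4 lower after UNC0642 recovery against 0 h (median 0.01), and 4 higher and 4 lower after DMSO recovery (median 0.01). These are 35% and 40% of the list, where 47% and 44.1% of all tested genes were called, and with library totals alone 6 were higher and 2 lower after UNC0642 recovery and 5 higher and 2 lower after DMSO recovery. Named by the same rule, the prolyl hydroxylase gene P4HA2 had 0.25 ± 0.06 and 0.16 ± 0.06, its partner P4HB -0.08 ± 0.02 and -0.14 ± 0.02, DOHH -0.19 ± 0.05 and -0.24 ± 0.05, and KDM4B 0.24 ± 0.06 and 0.25 ± 0.06.

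The genes whose profile over the 12 libraries was most like FTH1 were ALDH1A3, an aldehyde dehydrogenase (Pearson r = 0.998 of log2 CPM), CTTN, cortactin (0.994), and S100A6, a calcium-binding protein (0.993), among 11437 genes ranked. STEAP3 (0.971) and FTL (0.962) were the iron genes nearest to FTH1. ALDH1A3 differed by 1.16 ± 0.02 on the log2 scale between UNC0642 recovery and 0 h and by 1.00 ± 0.02 between DMSO recovery and 0 h. For TFRC the most alike were IKBKAP (0.970), DOCK5 (0.964) and MYOM3 (0.934), and for SLC40A1 they were TMEM133 (0.933), CLYBL (0.928) and C16orf45 (0.922). These correlations share the 3 groups and the libraries and are descriptions with no p. Those of SLC40A1 rest on few reads, with sums of 100, 92 and 44 counts after UNC0642 recovery, after DMSO recovery and at 0 h. TMEM133 and CLYBL were called against 0 h in both recovery groups, and C16orf45 in neither.

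RefSeq promoters (GRCh38.p14, windows around the annotated starts) were held for 8 of the 10 genes, all but FTH1 and HMOX1. The antioxidant response core TGACNNNGC, on either strand, was in 13.3% of 35116 promoters, and among the 8 genes it was in 1 promoter of NCOA4 (chr10:46019950-46020249, minus strand). That share is per promoter window and not per gene, and NCOA4, SLC11A2 and IREB2 have more than 1 window. Sequence outside the windows was not searched. The AP-1 letters TGAGTCA were in 4.95% of promoters and in none of these 8 genes, which says only that these letters are not in these windows.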

How the data were processed

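RNA was sequenced in 12 libraries, grouped by the sample labels. The submitters' processing notes name RSEM 1.2.4, Bowtie and hg18. Whether counting used strand is not given in the sources used here, which leaves overlapping and antisense genes uncertain. The deposited tables hold, per the file headers, expected counts (RSEM estimates per gene, not always whole) and FPKM, with gene length and effective length. The lengths are other deposited values, used for offsets and for sorting libraries into classes.

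Expected counts were rounded, filtered with filterByExpr, scaled with TMM factors and fitted in edgeR 4.0.16 (R 4.3.3) by the quasi-likelihood F-test, with a mean per group over all 12 libraries and no covariates. P-values are two-sided and Benjamini-Hochberg adjusted over 12741 genes; "called" means an adjusted p under 0.05. CPM are TMM-scaled. The biological coefficient of variation was 3.44%. Chi-square per degree of freedom was 2.03 to 3.57 in the 18 within-group pairs of libraries, above sampling noise, and no library was treated as a duplicate. Ratios used deposited FPKM with exact permutation tests. The fit was checked on simulated counts.

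The members, lists and naming rule were chosen with earlier results of these data known. The rule names all 10 members, then in each list and comparison up to 3 called genes with the smallest p whose mean log2 CPM was 1 or more, then partners of the members fixed by symbol, then the 3 genes best correlated with FTH1, TFRC and SLC40A1. Lists are described by counts and medians without set tests. Hairpins come from GENCODE v29 transcripts and promoters from RefSeq. The alternatives changed the scaling (RLE factors, library totals alone), the filter (none, or CPM of 1 or more in 4 or more libraries), offsets (effective lengths), the model (replicate number as a block, gap class as a covariate), the libraries (the 8 compared, each left out) and the test (DESeq2 1.42.0, limma-voom and log2 FPKM with pseudocounts of 1 and 0.1 in limma 3.58.1). TPM were also recomputed for the order of levels, which they cannot change within a library. Added after seeing the data were unrounded counts, length and GC offsets (GC content was matched for 90.7% of tested genes and all 10 members), each gap class alone, and a fit without 6 libraries whose COL1A2 exceeded 1 CPM.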

Additional observations from a re-analysis of the deposited data

Results flagged for a closer look

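FTL in the DMSO recovery group had 1 library apart from the rest: replicate 2 stood at 1051 CPM, below replicates 1, 3 and 4 at 1084, 1088 and 1083 CPM, with a gap of 0.854 of the group's range, above Dixon's 95% limit for 4 samples. Of 36 groups of values examined in this way 1 passed the limit, and chance alone gives about 1 in 20. Without this library the log2 change of FTL against 0 h was 0.41, beside 0.40 with it.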

How the results depend on the processing

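Against 0 h, FTH1, FTL and STEAP3 kept direction and call under all 25 alternatives in both comparisons. The log2 change of FTH1 ranged over 0.60 to 0.69 after UNC0642 and 0.52 to 0.59 after DMSO recovery, that of FTL over 0.33 to 0.42 and 0.38 to 0.48, and that of STEAP3 over 0.30 to 0.44 and 0.22 to 0.34. For FTH1 between UNC0642 and DMSO recovery 24 of 25 kept the call. The labels do not say whether replicate numbers pair libraries. Over all tested genes the same-number correlations were -0.103 to 0.0445, which cannot exclude pairing for single genes such as TFRC. The replicate block called 5998, 5668 and 633 genes and changed no call of the 10 genes. The cause of the moves below was not tested. With library totals alone, UNC0642 against 0 h gave SLC11A2 0.12 and ACO1 0.12, now called, IREB2 -0.077, no longer called, and 0 lower genes, and DMSO against 0 h gave IREB2 -0.065, no longer called, NCOA4 0.12, now called, and 0 lower genes. With log2(FPKM + 1) in limma, UNC0642 against 0 h gave SLC11A2 0.11, ACO1 0.11, IREB2 -0.076 and 0 lower. DMSO against 0 h gave NCOA4 0.12, HMOX1 0.13, IREB2 -0.059 and 0 lower in this fit. UNC0642 against DMSO gave HMOX1 -0.16, now called (limma adjusted p = 0.0488), 1 lower and 1 wider list gene, where 3.08% of all tested genes were called. With log2(FPKM + 0.1) these were SLC11A2 0.12, ACO1 0.12, IREB2 -0.081 and 0 lower, then SLC11A2 0.12, NCOA4 0.12, HMOX1 0.14, IREB2 -0.062 and 0 lower, then HMOX1 -0.17, 1 lower and 1 wider list gene. DESeq2 lost SLC40A1 in DMSO against 0 h (0.83, adjusted p = 0.0669), and gap class as a covariate turned SLC40A1 between UNC0642 and DMSO to -0.0061. Length and GC offsets gave NCOA4 0.077 in DMSO against 0 h. Between UNC0642 and DMSO these offsets gave FTL -0.069 (now called), IREB2 0.0037 (reversed), 1 lower and 8 wider list genes. There 5.97% of all tested genes were called. Without the 6 COL1A2 libraries, which leaves 1 library at 0 h assumed to vary like the others, UNC0642 against 0 h lost TFRC 0.092, IREB2 -0.11 and NCOA4 0.12, with 0 lower and 38 wider list genes. In the same setting DMSO against 0 h lost TFRC 0.063 and SLC40A1 1.31, turned SLC11A2 to -0.0079 and had 40 wider list genes, and UNC0642 against DMSO lost FTH1 0.089, turned IREB2 to 0.060 and had 0 higher and 2 wider list genes. Without those COL1A2 libraries fewer of all tested genes were also called in each comparison. Within long-gap libraries UNC0642 against 0 h lost SLC40A1 0.95 and IREB2 -0.087, with 0 lower and 47 wider list genes. DMSO against 0 h there lost SLC40A1 0.72, IREB2 -0.11 and ACO1 0.11, gained NCOA4 0.12 and had 0 lower. UNC0642 against DMSO turned SLC11A2 to -0.0072 and IREB2 to 0.025, with 2 wider list genes. Of all tested genes 34.5%, 35.9% and 2.13% were called in these 3 comparisons, instead of 47%, 44.1% and 4.58%. Within short-gap libraries UNC0642 against 0 h lost SLC40A1 0.87 and NCOA4 0.077, DMSO against 0 h lost TFRC 0.036, SLC40A1 1.22, IREB2 -0.13 and ACO1 0.18, turned NCOA4 to -0.048 and had 3 higher, 0 lower and 43 wider list genes, and UNC0642 against DMSO turned SLC40A1 to -0.36, with 0 wider list genes. In the short-gap class fewer of all tested genes were called in each comparison, 31.7% instead of 47% for UNC0642 against 0 h. The lower list counts there, with 1 DMSO library, need not concern the lists themselves. With each library left out in turn, UNC0642 against 0 h gave IREB2 -0.17 to -0.087, SLC40A1 0.75 to 1.19 and 0 to 1 lower genes. DMSO against 0 h gave IREB2 -0.13 to -0.10, NCOA4 0.050 to 0.11, SLC40A1 0.60 to 1.11, TFRC 0.053 to 0.087 and 0 to 1 lower genes. UNC0642 against DMSO gave IREB2 -0.056 to 0.031, SLC11A2 -0.015 to 0.023, SLC40A1 -0.034 to 0.32 and 1 to 6 wider list genes. Over these fits 3.14% to 4.82% of all tested genes were called. Depth limits SLC40A1 most, since its sums were 100, 92 and 44 counts after UNC0642 recovery, after DMSO recovery and at 0 h.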

Other observations

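LCN2, lipocalin 2, a secreted protein that binds iron-loaded siderophores, fell below the abundance limit of the named-gene rule and was singled out after its values were seen. It had 44, 34, 36 and 33 counts after UNC0642 recovery, 25, 24, 30 and 36 counts after DMSO recovery and 4, 9, 3 and 4 counts at 0 h. Both recovery groups lay above 0 h in every library, with log2 changes of 2.59 ± 0.32 after UNC0642 recovery (edgeR adjusted p = 4.13e-08) and 2.28 ± 0.33 after DMSO recovery (adjusted p = 1e-06). Between UNC0642 and DMSO recovery LCN2 differed by 0.31 ± 0.23 (adjusted p = 0.528).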
